A study of Mus musculus with 9 samples.

Results

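The genes described here make, store, receive and clear GABA, the main inhibitory transmitter of the brain. They are the 25 genes whose names were listed for GABA receptor subunits, GABA synthesis, transport and breakdown, synapse scaffolds and chloride transport, out of 54532 genes in the count table. All 25 were found by name, and 23 of them passed the filter on low counts that left 17546 genes for testing. The 2 that did not pass were Gabra6 and Gabrr2. Expression was measured by RNA sequencing of whole hypothalamus from wild-type male ICR mice, an outbred stock, on postnatal day 21. The dams of HA pups ate a high-fat high-sucrose chow with 45% of its energy from fat, and HA pups received 4-PBA. The dams of HP pups ate the same chow and HP pups received PBS, whereas LP pups had dams on low-fat chow (10% of energy from fat) and received PBS. Each group had 3 libraries, all pups were injected daily on postnatal days 4 to 16, and dams ate their diet from 5 weeks of age for 5 weeks before mating and on through lactation. 4-PBA, or 4-phenylbutyric acid, is known as a chemical chaperone and as an inhibitor of histone deacetylases.

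GABA is made from glutamate by the enzymes GAD67 (Gad1) and GAD65 (Gad2) and is loaded into vesicles by the transporter VGAT (Slc32a1). It opens GABA-A receptors, chloride channels built from alpha, beta and a further kind of subunit, and it activates GABA-B receptors, which couple to G proteins and need both Gabbr1 and Gabbr2. In the hypothalamus, GABA neurons take part in the control of feeding, body temperature, sleep and hormone release.

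RefSeq promoter windows of build GRCm38.p6, which run from 250 bases before to 50 bases after a gene's start, were matched for 22 of the 25 genes. The windows of 5 genes are shown. Gad2, Gad1 and Slc32a1 are shown because their levels varied together over the 9 libraries, and Gabra4 and Gabrb1 because they start next to each other on opposite strands. Capitals mark a GC box (GGGCGG) or a TATA box (TATAAA) on either strand, and a homeodomain core (TAATTA) and a cyclic AMP response element (TGACGTCA) were also searched on both strands.
Gad2 promoter, chr2:22622077-22622376, + strand: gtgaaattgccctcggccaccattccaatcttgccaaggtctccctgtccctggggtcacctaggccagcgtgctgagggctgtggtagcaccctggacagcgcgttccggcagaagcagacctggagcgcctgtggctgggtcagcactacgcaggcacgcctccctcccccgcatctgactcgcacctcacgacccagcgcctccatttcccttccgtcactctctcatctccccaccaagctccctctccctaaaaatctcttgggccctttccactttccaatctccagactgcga
Gad1 promoter, chr2:70561879-70562178, + strand: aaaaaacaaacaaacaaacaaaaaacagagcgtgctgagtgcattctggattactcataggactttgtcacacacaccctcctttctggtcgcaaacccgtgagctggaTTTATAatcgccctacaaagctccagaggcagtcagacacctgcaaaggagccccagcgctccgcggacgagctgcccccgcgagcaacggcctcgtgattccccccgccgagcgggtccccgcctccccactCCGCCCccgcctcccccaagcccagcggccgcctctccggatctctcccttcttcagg
Slc32a1 promoter, chr2:158610508-158610807, + strand: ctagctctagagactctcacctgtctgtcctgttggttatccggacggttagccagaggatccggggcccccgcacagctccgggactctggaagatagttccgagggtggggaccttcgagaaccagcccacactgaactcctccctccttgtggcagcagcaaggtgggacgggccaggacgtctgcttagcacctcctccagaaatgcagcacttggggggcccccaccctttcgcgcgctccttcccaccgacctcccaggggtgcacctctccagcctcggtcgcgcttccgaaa
Gabra4 promoter, chr5:71658259-71658558, - strand: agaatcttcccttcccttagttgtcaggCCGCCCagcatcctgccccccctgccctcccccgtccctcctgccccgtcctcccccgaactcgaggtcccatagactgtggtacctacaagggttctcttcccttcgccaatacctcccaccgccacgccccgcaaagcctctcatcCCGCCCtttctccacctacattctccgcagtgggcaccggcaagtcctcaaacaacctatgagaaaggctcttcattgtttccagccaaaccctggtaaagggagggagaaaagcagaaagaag
Gabrb1 promoter, chr5:71657671-71657970, + strand: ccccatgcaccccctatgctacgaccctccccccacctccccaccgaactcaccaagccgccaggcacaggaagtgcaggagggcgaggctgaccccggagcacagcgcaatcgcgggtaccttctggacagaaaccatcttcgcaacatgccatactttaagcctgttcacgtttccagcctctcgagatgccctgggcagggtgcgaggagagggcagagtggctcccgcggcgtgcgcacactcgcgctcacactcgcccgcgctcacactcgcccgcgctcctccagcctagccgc

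The Gad1 window held 1 TATA box and 1 GC box, the Gabra4 window held 2 GC boxes, and the windows of Gad2, Slc32a1 and Gabrb1 held none of these letters. Over the 22 windows, 14 held a GC box, 3 a TATA box, 1 a homeodomain core and 0 a cyclic AMP response element. Of 32817 mouse promoter windows of the same length, 35.6% held a GC box, 13.6% a TATA box, 5.3% a homeodomain core and 1.79% a cyclic AMP response element. The median GC content was 62.3% in the 22 windows and 52.7% in all windows, and the median number of CpG dinucleotides was 17.5 and 7. These letters describe the windows and do not show binding. The window of Gad1 belongs to a start 9057 bases inside the deposited gene model, which begins at an earlier start.

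Most of the GABA-A receptor genes listed lie in clusters, whereas Gabrd, Gabbr1 and Gabbr2 lie apart from the others. On chromosome 5, Gabrg1, Gabra2 and Gabra4 lie on the minus strand and Gabrb1 on the plus strand, with gaps of 115 kb between Gabrg1 and Gabra2 and 474 kb between Gabra2 and Gabra4. The gene models of Gabra4 (chr5:71569749-71658308) and Gabrb1 (chr5:71658113-72149037) overlap by 196 bases at their starts. On chromosome X, Gabre, Gabra3 (chrX:72432681-72656848) and Gabrq follow each other with gaps of 158 kb and 168 kb. Gabrg3 and Gabra5 lie 20.5 kb apart on chromosome 7, Gabra6 and Gabrb2 lie 98.7 kb apart on chromosome 11, and Gabrr2 and Gabrr1 lie 36.7 kb apart on chromosome 4. Neighbours in a cluster could differ in level, as Gabrb2 averaged 20.4 FPKM over the 9 libraries, and its neighbour Gabra6 0.0206 FPKM.

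Total counts lay between 18226924 and 21823961 per library, so that 3 counts, the limit that a count of 0 allows, corresponded to 0.138 to 0.167 CPM (counts scaled to library size). All 13 hypothalamic markers were detected in all 9 libraries, with sums of 1212 to 1570 CPM in HA, 1319 to 1485 CPM in HP and 1227 to 1458 CPM in LP. Libraries within a group differed in summed markers of the meninges, the striatum and oligodendrocytes. The 7 meningeal markers summed to 692 CPM in HA replicate 3, to 361 CPM in LP replicate 3 and to between 53.7 and 109 CPM elsewhere. The 11 striatal markers, all detected in every library, summed to between 398 and 427 CPM in 7 libraries, but to 580 CPM in LP replicate 1 and to 725 CPM in LP replicate 2. The 6 oligodendrocyte markers summed to 19181.5, 13936.3 and 11339.4 CPM in HA, 19171.4, 19992.6 and 16716.9 CPM in HP and 12909.1, 20128.5 and 14608.8 CPM in LP. The part of oligodendrocyte RNA in the values below was not tested. The library kit was not described as stranded, and in whole tissue fewer cells of a type and less RNA per cell cannot be told apart.

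On the length-scaled FPKM scale (fragments per kilobase, scaled to library size), an uptake gene, a GABA-B receptor gene and a breakdown gene stood highest. The order of genes on this scale depends on the exonic lengths of the deposited gene models. Slc6a11, which encodes the GABA transporter GAT-3 of astrocytes (chr6:114131241-114249952), averaged 191 ± 6.81 FPKM over the 9 libraries (SD). Gabbr1, the ligand-binding subunit of the GABA-B receptor (chr17:37045966-37075067), averaged 116 ± 3.595 FPKM, and Abat, the transaminase that breaks down GABA, averaged 96.6 ± 3.58 FPKM. The ranges of these 3 genes over the libraries did not overlap, so their order held in each of the 9 libraries. Below them came Slc12a5 at 88.7 ± 4.30 FPKM, Gad2 at 73.3 ± 12.8 FPKM, Nlgn2 at 59.9 ± 2.37 FPKM, Slc32a1 at 54.5 ± 8.24 FPKM and Gad1 at 39.8 ± 5.80 FPKM. Each of these 5 overlapped its neighbour in the order. Slc12a5 encodes the chloride exporter KCC2 and Nlgn2 encodes neuroligin 2, an adhesion molecule of inhibitory synapses.

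**Figure D1:**
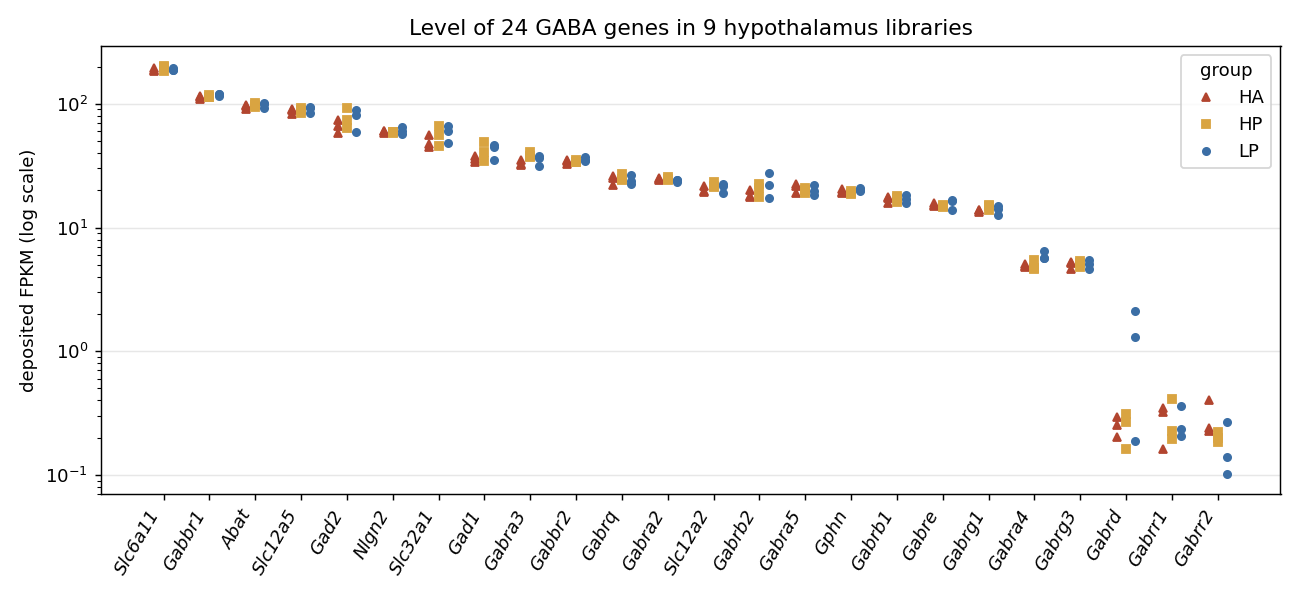
FPKM per library on a log axis for 24 of the GABA genes, ordered by their mean over the 9 libraries, with 1 point per library coloured by group (HA, HP, LP). Slc6a11 at 191 FPKM stands at the top of the order and Gabrr2 at 0.221 FPKM at the bottom, Gabra6 with its values of 0 is not drawn, and Gabrd shows 2 LP libraries apart from the rest.

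Among the alpha subunit genes listed here, Gabra3 was highest at 35.7 ± 3.13 FPKM. Gabra2 followed at 24.5 ± 0.581 FPKM and Gabra5 at 20.4 ± 1.57 FPKM, while Gabra4 averaged 5.26 ± 0.602 FPKM. Gabra3 exceeded Gabra2 in 9 of 9 libraries, by a ratio of 1.31 to 1.60, and it exceeded Gabra4 by a ratio of 5.58 to 8.61. The order of Gabra3 and Gabra2 depends on their exonic lengths, 3924 and 7640 bases. In CPM, without length, Gabra2 averaged 189, 191 and 183 in HA, HP and LP, above Gabra3 at 131, 152 and 139. Gabra6, known from granule cells of the cerebellum, had 0 to 5 counts per library and was listed at 0 in 5 of the 9 libraries. Gabra5 lies on chromosome 7 (chr7:57407672-57510059) and shares 90368 bases of genomic span, introns included, with a gene model of the opposite strand. That model averaged 5343 counts and Gabra5 averaged 1184. Shared exon bases were not computed, so how far the Gabra5 level is uncertain without strand is not known.

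Of the beta and gamma subunit genes listed, Gabrb2 averaged 20.4 ± 3.33 FPKM and Gabrb1 17.0 ± 0.866 FPKM, with Gabrb2 above Gabrb1 in 8 of 9 libraries. That order too depends on exonic length, 6360 bases for Gabrb2 and 13838 for Gabrb1. In CPM Gabrb1 averaged 235, 238 and 237 in HA, HP and LP, above Gabrb2 at 119, 129 and 143. Gabrg1 averaged 14.1 ± 0.853 FPKM and Gabrg3 5.05 ± 0.3003 FPKM, and Gabrg1 exceeded Gabrg3 in 9 of 9 libraries by a ratio of 2.60 to 3.15. The genes for the epsilon and theta subunits, Gabre and Gabrq, are known for their expression in hypothalamus and brainstem nuclei. Gabrq averaged 24.7 ± 1.73 FPKM, next to Gabra2, and Gabre averaged 15.3 ± 0.883 FPKM, so both stood above Gabra4 and Gabrg3 in every library. Gabrd, which encodes the delta subunit of receptors outside the synapse, averaged 0.566 ± 0.680 FPKM, and the rho subunit genes Gabrr1 and Gabrr2 averaged 0.274 ± 0.0865 and 0.221 ± 0.0864 FPKM. Other subunit genes of the family were not analysed here, so these are levels among the listed genes only.

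Gabbr2, the partner of Gabbr1 that couples to the G protein, averaged 34.7 ± 1.17 FPKM. The ratio of Gabbr1 to Gabbr2 was 3.34 ± 0.0941 (SD, n = 9) and ranged from 3.23 to 3.49, a coefficient of variation of 2.82%. Gphn, which encodes the scaffold protein gephyrin, averaged 19.6 ± 0.757 FPKM and overlaps an antisense gene model, Gm48226, with 162 counts on average against 1443 for Gphn. Slc12a2, which encodes the chloride importer NKCC1 and is also expressed by glia, averaged 21.1 ± 1.502 FPKM. The ratio of the exporter gene Slc12a5 to the importer gene Slc12a2 was 4.23 ± 0.429 and lay between 3.57 and 4.99 over the libraries.

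HP was set against LP to ask whether these genes differed with the diet of the dam among pups given PBS. EdgeR called 0 of the 23 tested genes after Benjamini-Hochberg adjustment over all genes, where 0.0114% of all genes were called (2 of 17546). At an unadjusted p under 0.05 there were 2 of 23, Gabrd and Gabra4, and 1073 of all genes, and DESeq2 and limma-voom also called 0 of the 23. Estimates were higher in HP for 11 genes and lower for 12, with a median log2 fold change of -0.01, against a median of -0.0024 over all genes. The 3 libraries of HP lay apart from the 3 of LP in CPM for 2 of the 23 genes (Gabra2 and Gabra4), where the share over all genes was 11.8%. For 21 of the 23 the 95% interval of the log2 fold change lay within 0.5 of 0, the exceptions being the low-count genes Gabrd and Gabrr1.

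The comparison of HA with HP asked whether they differed with 4-PBA under the high-fat high-sucrose diet. EdgeR called 0 of 23, with 0.0114% of all genes called (2 of 17546), and 1 gene, Gabra3, had an unadjusted p under 0.05, as did 951 of all genes. DESeq2 and limma-voom called 0 of 23. Estimates were higher in HA for 7 genes and lower for 16, with a median of -0.03, and over all genes 8937 were higher and 8609 lower, with a median of 0.0027. The libraries of HA and HP lay apart for 2 of 23 genes (Gabra3 and Gabrg1), against 11.8% of all genes. The 95% interval lay within 0.5 of 0 for 19 genes, the others being Gabrd, Gabrr1, Gad1 and Gad2.

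The comparison of HA with LP set pups that had both the diet and 4-PBA against pups that had neither. It shares its libraries with the other comparisons, and replicate numbers were not used to pair libraries. EdgeR called 0 of 23 genes and 0% of all genes, with 2 of 23 (Gabrd and Gabra4) and 1142 of all genes at an unadjusted p under 0.05. DESeq2 and limma-voom called 0 of 23. Estimates were higher in HA for 3 genes and lower for 20, with a median of -0.04, and over all genes 9107 were higher and 8439 lower, with a median of 0.0057. All 6 pan-neuronal markers had lower estimates in HA against HP (median -0.04) and 5 of 6 in HA against LP (median -0.09), and their part in the members' estimates was not tested. The libraries lay apart for 2 of 23 genes (Gabra4 and Gabbr1), against 10.9% of all genes. The 95% interval lay within 0.5 of 0 for 17 genes.

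**Figure D2:**
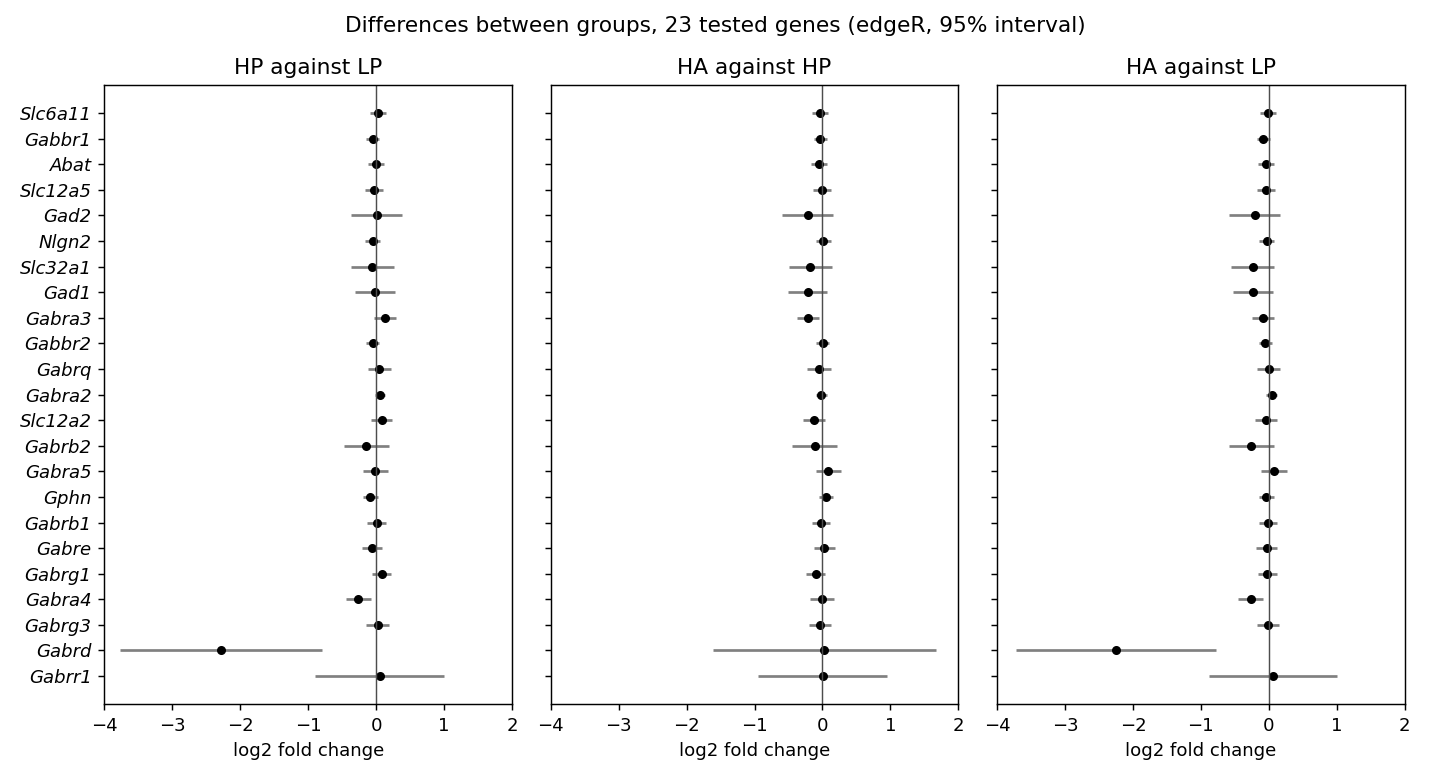
Log2 fold change from edgeR for the 23 tested GABA genes for HP with LP, HA with HP and HA with LP. Each has a 95% interval computed from its F statistic. In HP against LP 21 of 23 intervals lie within 0.5 of 0, and Gabrd has the widest, reaching -3.77 in HP against LP.

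Gad2, Gad1 and Slc32a1 spread widely over the 9 libraries. Within HA Gad1 spread less, at 274 ± 16.6 CPM against 319 ± 57.4 CPM in HP and 322 ± 47.2 CPM in LP (SD, n = 3 each). Gad2 (chr2:22622205-22693874) had 437, 342 and 393 CPM in the HA libraries, 550, 375 and 438 CPM in the HP libraries and 525, 484 and 345 CPM in the LP libraries. The highest library was HP replicate 1 and the lowest HA replicate 2, a ratio of 1.61, and all 3 groups overlapped. Gad1 (chr2:70553072-70602014) had 292, 259 and 273 CPM in HA, 379, 264 and 315 CPM in HP and 357, 342 and 269 CPM in LP. Slc32a1 (chr2:158610767-158615748) had 158, 125 and 133 CPM in HA, 184, 129 and 158 CPM in HP and 184, 169 and 136 CPM in LP. The groups overlapped for both genes. In HA against HP the log2 fold changes were -0.22 for Gad1 (SE 0.131, edgeR adjusted p = 0.84), -0.22 for Gad2 (SE 0.169, adjusted p = 0.852) and -0.18 for Slc32a1 (SE 0.143, adjusted p = 0.857). Without HP replicate 1 they were -0.08 for Gad1, -0.06 for Gad2 and -0.05 for Slc32a1.

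**Figure D3:**
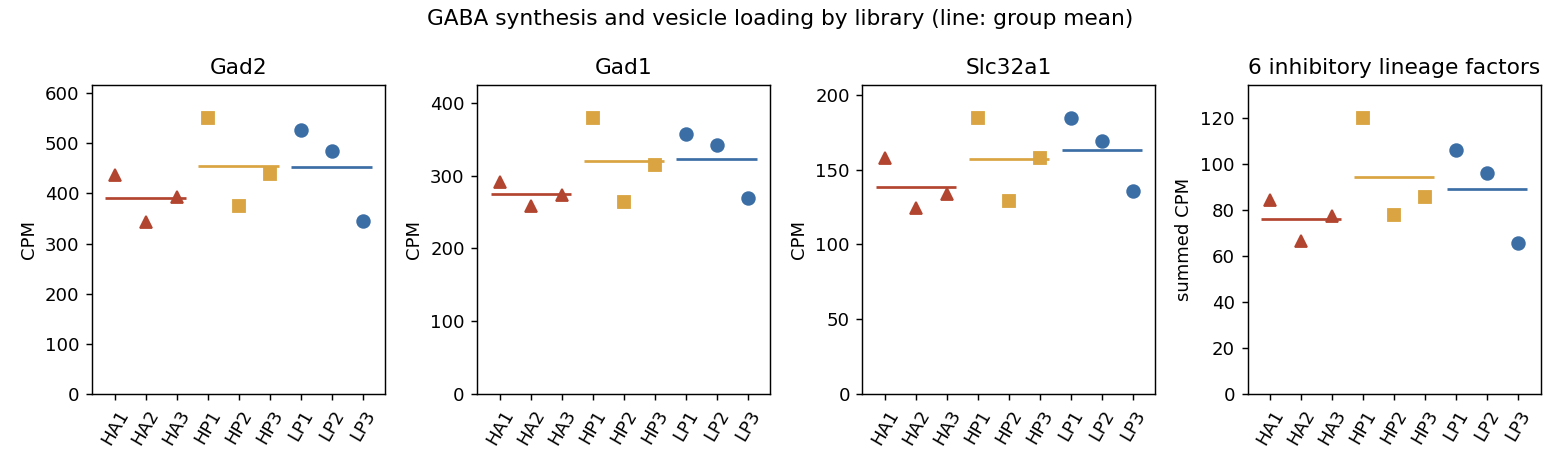
CPM per library for genes of GABA synthesis and vesicle loading and for the summed inhibitory lineage factors, in HA, HP and LP, with 1 point per library and a line at each group mean. HP replicate 1 stands highest for Gad2 at 550 CPM and for Gad1 at 379 CPM, and HA replicate 2 lowest for Gad2 at 342 CPM.

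Relations with Gad2 over the 9 libraries were computed for the other 22 tested genes and 7 marker sums, 29 in all, and Gad2 was chosen for this after its spread was seen. The members and marker lists were chosen with earlier results of these data known. The permutations treat the 9 libraries as exchangeable, although some share a title code. On log2 CPM, Gad2 had a Pearson r of 0.97 with Gad1 (exact permutation p = 2.48e-05, adjusted over the 29 to 0.00036) and a Spearman rho of 0.983 (p = 4.96e-05, adjusted 0.00144). With Slc32a1 r was 0.965 (exact permutation p = 7.99e-05, adjusted 0.000772) and rho 0.933 (p = 0.00075, adjusted 0.00725). Without HA replicate 2 and LP replicate 3, the libraries farthest from the median of Gad2, r was 0.984 with Gad1 and 0.981 with Slc32a1, and after removing group means it was 0.976 and 0.972. The summed counts of the inhibitory lineage factors Dlx1, Dlx2, Dlx5, Dlx6, Lhx6 and Sp9 followed Gad2 as well, with r of 0.985 (exact permutation p = 1.93e-05, adjusted 0.00036) and rho of 0.967 (p = 0.000165, adjusted 0.00239), and r was 0.972 without the same 2 libraries. The summed glutamatergic markers Slc17a6 and Slc17a8 ran the other way, with r of -0.799 (exact permutation p = 0.0113, adjusted 0.0468) and rho of -0.8 (p = 0.0138, adjusted 0.05), and r was -0.584 without those 2 libraries. The summed pan-neuronal markers ran with Gad2 too, with r of 0.664 (exact permutation p = 0.0439, adjusted 0.141) and rho of 0.817 (p = 0.0108, adjusted 0.05). Without the same 2 libraries r was 0.819. Abat had r of 0.753 (adjusted exact permutation p = 0.0703) and rho of 0.8 (adjusted 0.05). Sums for striatum, hypothalamus, meninges and astrocytes had r of 0.487, -0.308, -0.525 and -0.338 (adjusted exact permutation p of 0.332 or more). The lineage factor sum was 84.3, 66.7 and 77.3 CPM in HA, 120.0, 77.9 and 85.9 CPM in HP and 106, 96.1 and 65.7 CPM in LP. The part of inhibitory lineage RNA, or of neuronal RNA as a whole, in the spread of Gad2 was not tested. The title codes hold 1 to 4 libraries each, too few for a value within a code.

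Of the receptor genes, Gabra3 (r 0.809, exact permutation p = 0.011, adjusted 0.0468; rho 0.767, p = 0.0214, adjusted 0.069) and Gabrb2 (r 0.796, exact permutation p = 0.00901, adjusted 0.0468; rho 0.85, p = 0.00607, adjusted 0.0352) ran in the same direction as Gad2 over libraries. Gabra5 ran the other way (r -0.868, exact permutation p = 0.00417, adjusted 0.0302; rho -0.867, p = 0.00451, adjusted 0.0327). Without the 2 libraries farthest from the median of Gad2, r was 0.654 for Gabra3, 0.731 for Gabrb2 and -0.735 for Gabra5. Gabrb2 (chr11:42419757-42629028) had 129, 115 and 114 CPM in HA, 143, 112 and 133 CPM in HP and 141, 177 and 110 CPM in LP, with LP replicate 2 highest and the groups overlapping.

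Gabrd was the member with the largest difference in estimate. Gabrd (chr4:155384980-155398112) had 0.737, 0.588 and 0.852 CPM in HA, 0.891, 0.778 and 0.471 CPM in HP and 3.75, 6.11 and 0.538 CPM in LP, from 9 to 129 counts. LP replicates 1 and 2 stood above the other 7 libraries and LP replicate 3 among them, so the groups overlapped. The log2 fold change was -2.28 in HP against LP (SE 0.666, edgeR adjusted p = 0.692) and -2.25 in HA against LP (SE 0.661, adjusted p = 0.653). In HA against HP it was 0.03 (SE 0.739, adjusted p = 0.997). LP replicates 1 and 2 were also the libraries highest in striatal markers: Adora2a, which encodes an adenosine receptor abundant in striatum, had 2.39 to 4.21 CPM in HA and HP and 15.7, 23.6 and 3.76 CPM in LP. The 11 striatal markers had log2 fold changes of -2.41 to -0.05 in HP against LP (median -0.39) and -1.98 to -0.12 in HA against LP (median -0.63). At an unadjusted edgeR p under 0.05 there were 9 and 8 of 11, beside 1073 and 1142 of the 17546 genes tested, and 0 were called. The part of striatal RNA in this difference was not tested. Without LP replicates 1 and 2 the estimate was 0.40 in HP against LP and 0.42 in HA against LP. Without LP replicate 3 edgeR called Gabrd lower in HP and in HA (log2 fold changes -2.78 and -2.75, adjusted p = 0.0148 and 0.0248), and with no filter on low counts it was called as well (adjusted p = 0.0354 and 0.0408).

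**Figure D4:**
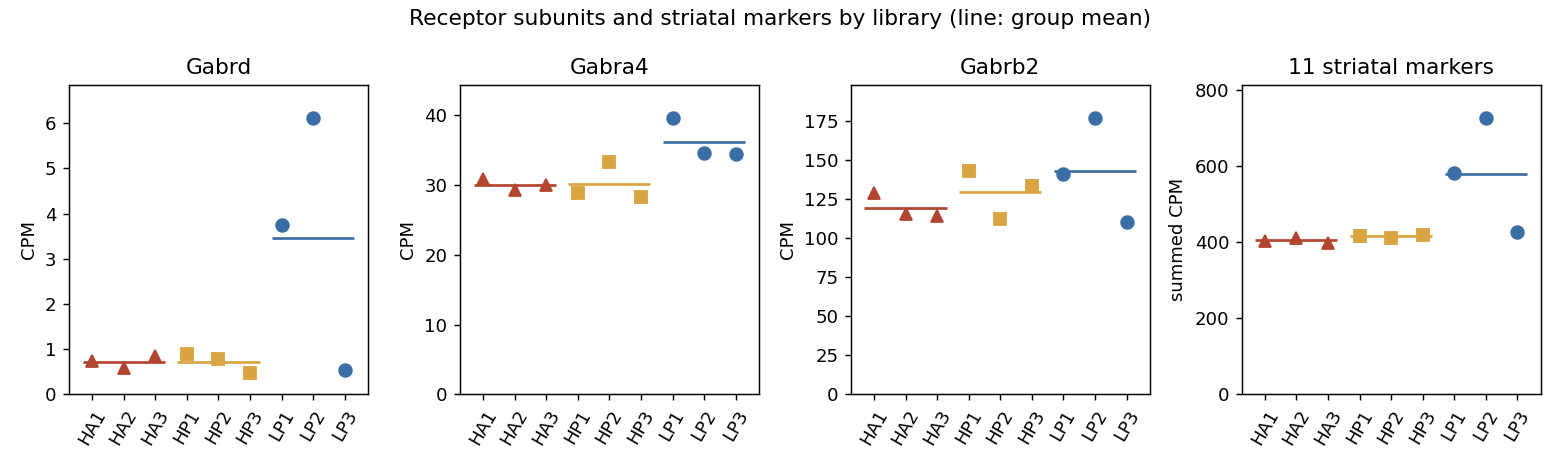
CPM per library for Gabrd, Gabra4 and Gabrb2 beside the summed 11 striatal markers, in HA, HP and LP, with 1 point per library and a line at each group mean. LP replicates 1 and 2 stand apart for Gabrd (3.75 and 6.11 CPM) and for the striatal markers. LP replicate 3 lies among the HA and HP libraries for Gabrd and just above them for the striatal markers (427 CPM against 398 to 417 CPM). For Gabra4 every LP library lies above every HA and HP library.

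Gabra4, which encodes an alpha subunit often paired with delta, had lower levels in HA and HP, with no library of those groups above an LP library. It had 30.9, 29.3 and 29.9 CPM in HA, 28.9, 33.3 and 28.2 CPM in HP and 39.6, 34.5 and 34.4 CPM in LP. The log2 fold change was -0.26 in HP against LP (SE 0.0817, edgeR adjusted p = 0.736) and -0.27 in HA against LP (SE 0.0816, adjusted p = 0.663), and neither passed the adjustment. The striatal markers summed to 398 to 417 CPM in HA and HP and to 580, 725 and 427 CPM in the 3 LP libraries, and their part in the difference of Gabra4 was not tested. Without LP replicates 1 and 2 the estimates were -0.19 and -0.20. Reads from the 196 bases shared with Gabrb1 cannot be assigned without strand.

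Gabra3 had 139, 128 and 125 CPM in HA, 160.4, 146 and 149 CPM in HP and 148, 144 and 124 CPM in LP. All 3 HA libraries lay below all 3 HP libraries, and LP overlapped both. The log2 fold change in HA against HP was -0.21 (SE 0.0702, unadjusted p = 0.0122 and adjusted p = 0.84, edgeR), and it did not pass. Gabrg1 had 106, 109 and 109.7 CPM in HA, 118, 120 and 110.1 CPM in HP and 119, 111 and 99.0 CPM in LP, so HA and HP were apart by less than 1 CPM at their nearest libraries. Gabra2 had 192, 189 and 185 CPM in HA, 195, 191 and 187 CPM in HP and 180, 186 and 184 CPM in LP, with a log2 fold change of 0.06 in HP against LP (SE 0.0346, adjusted p = 0.872).

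The remaining genes varied little. Of the 23 tested genes, 16 had a coefficient of variation of CPM under 10% over the 9 libraries, and the others were Gabra4, Gad1, Slc32a1, Gabrb2, Gad2, Gabrr1 and Gabrd. Apart from Gabrd and Gabrr1, log2 fold changes ran from -0.26 to 0.13 in HP against LP, from -0.22 to 0.09 in HA against HP and from -0.27 to 0.08 in HA against LP. The uptake gene Slc6a11 had 955, 991 and 932 CPM in HA, 1010, 924 and 1019 CPM in HP and 992, 957 and 947 CPM in LP, and its log2 fold changes were 0.03, -0.04 and -0.0087 in the same order of comparisons as above. Gabbr1 had 889, 892 and 855 CPM in HA, 921, 888 and 888 CPM in HP and 939.9, 911 and 937 CPM in LP, with a log2 fold change of -0.08 in HA against LP (SE 0.0437, edgeR adjusted p = 0.81). Gabrr2, untested, averaged 0.614 CPM in HA, 0.425 CPM in HP and 0.359 CPM in LP, from 4 to 16 counts.

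Ratios within a library do not depend on scaling between libraries. The 6 ratios Slc12a5 to Slc12a2, Gad2 to Gad1, Gabbr2 to Gabbr1, Gabra2 to Gabra5, Gabrg1 to Gabrg3 and Slc32a1 to Gad2 were compared in the 3 comparisons on the log2 FPKM scale. Groups overlapped in all 18. Exact two-sided permutation tests gave p between 0.3 and 1, adjusted over the 18 to between 0.982 and 1, and 3 libraries against 3 cannot go below 0.1. The chloride pair, whose balance is known to set the direction of GABA currents, had a mean log2 ratio of 2.11 ± 0.0929 in HA, 1.997 ± 0.144 in HP and 2.11 ± 0.206 in LP (SD, n = 3 each). The largest difference among the 18, in either direction, was 0.12 for that pair in HA against HP.

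**Figure D5:**
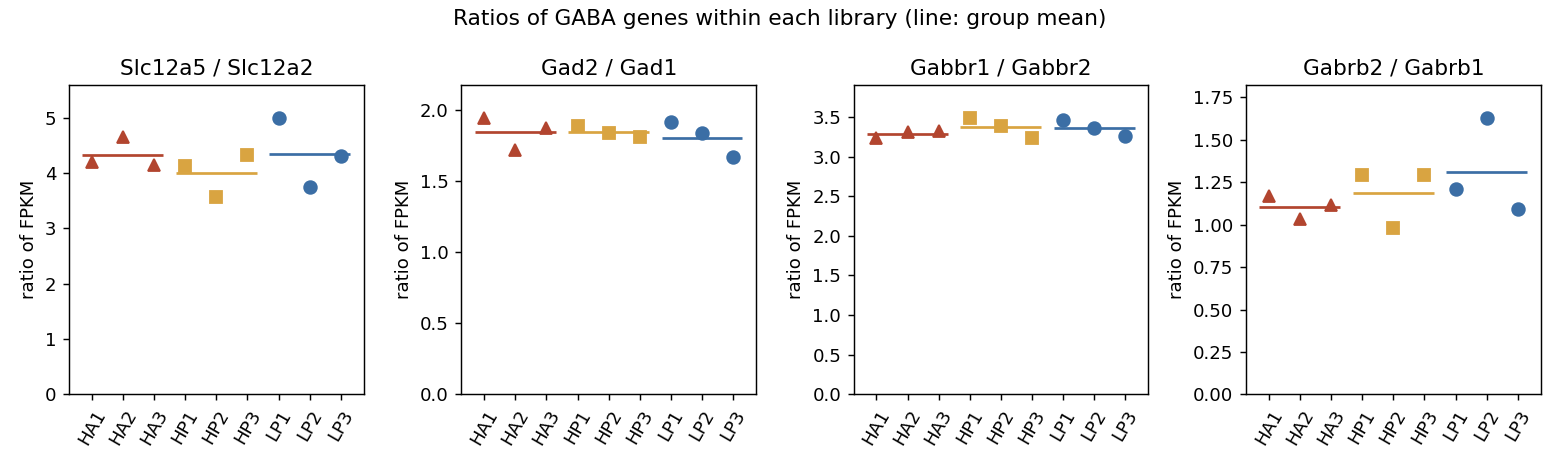
Ratios of FPKM within each library for Slc12a5 to Slc12a2, Gad2 to Gad1, Gabbr1 to Gabbr2 and Gabrb2 to Gabrb1, in HA, HP and LP, with 1 point per library and a line at each group mean. Groups overlap for all 4 pairs, and Slc12a5 to Slc12a2 lies between 3.57 and 4.99.

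Beyond these genes, 42 others of the GABA pathway were followed, all tested: 12 of GABA and glutamine transport and metabolism, 16 of synapse scaffold and receptor trafficking, 5 partners of GABA-B receptors and 9 regulators of chloride transport. EdgeR called 0 of 42 in each comparison, with 3, 3 and 4 at an unadjusted p under 0.05 in the comparisons of HP with LP, HA with HP and HA with LP, beside 1073, 951 and 1142 of the 17546 genes tested. Groups lay apart in CPM for 4, 10 and 6 of the 42, where 11.8%, 11.8% and 10.9% of all genes did. Their median log2 fold changes were -0.02, -0.03 and -0.02. Slc38a5, a glutamine transporter gene, had 6.31, 6.26 and 9.69 CPM in HA, 4.62, 3.99 and 3.66 CPM in HP and 4.87, 6.73 and 6.77 CPM in LP. All HA and LP libraries lay above all HP libraries, and the log2 fold change was 0.86 in HA against HP (SE 0.212, edgeR adjusted p = 0.84) and -0.58 in HP against LP (SE 0.212, adjusted p = 0.792). The 4 endothelial markers had a median log2 fold change of 0.34 in HA against HP, with 2 of 4 at an unadjusted edgeR p under 0.05. In HP against LP their median was -0.08, with 0 of 4. HA replicate 3, the highest library for Slc38a5, also had the largest endothelial and meningeal sums, 325 and 692 CPM. HP replicate 3, the lowest library for Slc38a5, had sums of 265 and 109 CPM, above those of HA replicates 1 and 2. The part of endothelial and meningeal RNA in the Slc38a5 differences was not tested. Slitrk3, a synaptic adhesion gene, had a log2 fold change of -0.14 in HP against LP (adjusted p = 0.779). Plcl2 had -0.15 in HA against HP (adjusted p = 0.84). Shisa7, an auxiliary protein of GABA-A receptors, had -0.18 in HA against LP, and Ajap1, a binding partner of GABA-B receptors, had -0.22 (adjusted p = 0.756 for both).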

How the data were processed

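RNA from whole hypothalamus was sequenced in 9 libraries, 3 for each of HA, HP and LP, from 3 µg of RNA per the labels' protocols. The authors deposited whole-number read counts for 54532 genes and FPKM values for the same libraries. The submitters' processing notes name DESeq2 1.16.1, HISAT2 2.0.5 and featureCounts 1.5.0-p3, and the build mm9. The deposited coordinates of all 25 genes, however, equal those of GENCODE M21 on GRCm38, and positions are printed unchanged and taken as GRCm38. FPKM recomputed from the deposited counts and gene lengths matched the deposited FPKM to a ratio between 0.981 and 1.01.

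The members and gene lists were chosen with earlier results of these data known. All 25 members are named, and of the other pathway genes the 2 of smallest unadjusted p per comparison. The main test was edgeR 4.0.16 (R 4.3.3), its quasi-likelihood F test on the counts of all 9 libraries with group as the only term, TMM scaling and filterByExpr, which kept 17546 genes. Tests were two-sided, with Benjamini-Hochberg adjustment over the 17546 genes and a limit of 0.05. The biological coefficient of variation was 14.1% (common dispersion 0.0199). CPM values use TMM-scaled totals. Levels between genes are compared in FPKM, log2 ratios use a pseudocount of 0.01 FPKM, and relations between libraries use log2 of CPM plus 0.1 with exact permutation tests (scipy 1.17.1). Simulated counts with independent libraries served only to check that the edgeR step recovers known fold changes in the median. They do not bear on shared title codes, outlying libraries or the small differences reported here. Alternatives were DESeq2 1.42.0, limma-voom (limma 3.58.1), other scaling, no filter, the replicate block, the title code and leaving out libraries. Intervals and limits of 0 counts cover counting error or the spread between libraries only.

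No 2 libraries of a group differed by as little as sampling noise (chi-square per degree of freedom 4.73 to 25.8). The labels do not say which pups share a litter, so p-values reflect only how these libraries vary, part of which may be technical or common to a litter. Title codes differ between diets, so where LP is compared the diet cannot be told apart from the code. Deviations of same-numbered libraries were compared to see whether replicate numbers pair them. The correlations were 0.256, 0.144 and 0.486 between HA and LP, but as low as 0.00387 between HA and HP and -0.0276 between HP and LP. Differently numbered libraries reached 0.251 (LP replicate 1 with HA replicate 2) and 0.182 (LP replicate 2 with HA replicate 1), so pairing is uncertain between HA and LP too. The main test used no pairing in any comparison, and the replicate block is given as an alternative.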

Additional observations from a re-analysis of the deposited data

How the results depend on the processing

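In HP against LP, edgeR called 2 genes, and the count was 1 when scaled by library totals, 53 with no filter on low counts, 32 by DESeq2, 4 in the 6 libraries alone, 4 with the replicate block, 37 without both LP replicate 3 and HA replicate 3, and 1 to 21 when leaving out 1 library (21 without LP replicate 3). In HA against HP it was 2, against 5 with no filter, 8 by DESeq2, 10 without both of those libraries and 1 to 9 when leaving out 1 library (9 without HA replicate 3), and the title code as a term gave 3. In HA against LP it was 0, against 41 with no filter, 27 by DESeq2, 1 in the 6 libraries alone, 23 without both of those libraries and 0 to 14 when leaving out 1 library (14 without LP replicate 3). The cause of these shifts was not tested. The title code could not be fitted in comparisons with LP. Members called were 0 in each comparison. In HP against LP and in HA against LP the count was 1 (Gabrd) with no filter, 1 without both of those libraries (log2 fold change -2.78, adjusted p = 0.00409, and -2.87, adjusted p = 0.0129, edgeR) and 0 to 1 when leaving out 1 library. Without Gabrd the smallest adjusted p of a member under any alternative was 0.44, 0.438 and 0.452 in the comparisons as ordered above. The replicate block left 0 members called in all 3 comparisons and 2 and 0 genes in HA against HP and HA against LP, and not every library correlated best with its own number. In HA against LP the block changed the unadjusted edgeR p from 0.129 to 0.0301 for Slc32a1 and from 0.106 to 0.0475 for Gad1. Their adjusted p under the block were 0.695 and 0.709.

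Many estimates changed sign, and none was past the threshold either as reported or under the alternative that turned it. Most were small, but Gabrd was not: its -2.28 in HP against LP and -2.25 in HA against LP were called lower under the alternatives named above and turned to 0.40 and 0.42 without LP replicates 1 and 2. Of the 23 estimates, 13, 9 and 19 changed sign under at least 1 alternative in the 3 comparisons. When leaving out 1 library in HP against LP, log2 fold changes ranged over -0.033 to 0.031 for Abat, -0.070 to 0.068 for Gabra5, -0.042 to 0.060 for Gabrb1, -0.30 to 0.041 for Gabrb2, -0.036 to 0.081 for Gabrg3, -0.0025 to 0.12 for Gabrq, -0.34 to 0.33 for Gabrr1, -0.15 to 0.10 for Gad1, -0.15 to 0.13 for Gad2, -0.092 to 0.0036 for Nlgn2, -0.079 to 0.0036 for Slc12a5 and -0.18 to 0.065 for Slc32a1. Those of HA against HP ranged over -0.023 to 0.032 for Gabbr2, -0.034 to 0.00071 for Gabra2, -0.055 to 0.076 for Gabra4, -0.059 to 0.026 for Gabrb1, -0.20 to 0.21 for Gabrd, -0.072 to 0.022 for Gabrg3, -0.11 to 0.018 for Gabrq, -0.19 to 0.40 for Gabrr1 and -0.041 to 0.039 for Slc12a5. Those of HA against LP ranged over -0.056 to 0.040 for Gabrb1, -0.11 to 0.019 for Gabre, -0.084 to 0.039 for Gabrg1, -0.068 to 0.042 for Gabrg3, -0.060 to 0.064 for Gabrq, -0.12 to 0.33 for Gabrr1, -0.081 to 0.015 for Nlgn2, -0.11 to 0.0084 for Slc12a2, -0.089 to 0.0051 for Slc12a5 and -0.031 to 0.013 for Slc6a11.

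Without both LP replicate 3 and HA replicate 3, the sign changed in HP against LP for Gabra5 (0.068), Gabrb1 (-0.042), Gabrg3 (-0.036), Gabrr1 (-0.028), Gad2 (-0.15) and Abat (-0.033). In HA against HP it changed for Gabra2 (0.00067), Gabra4 (0.00011), Gabrb1 (0.026), Gabrg3 (0.022), Gabrd (-0.089), Gabrq (0.018), Gabrr1 (-0.17) and Slc12a5 (0.039). In HA against LP it changed for Gabrq (0.049), Gabrr1 (-0.20), Gabbr2 (0.011), Slc6a11 (0.0021) and Slc12a5 (0.024). Without LP replicates 1 and 2, which leaves 1 LP library assumed to vary like the others, it changed in HP against LP for Gabrb2 (0.23), Gabrd (0.40), Gad1 (0.25) and Slc32a1 (0.20), and in HA against HP for Gabbr2 (-0.0018). In HA against LP it changed for Gabra3 (0.074), Gabra5 (-0.073), Gabrb1 (0.089), Gabrb2 (0.11), Gabrg1 (0.12), Gabrg3 (0.10), Gabrd (0.42), Gabrq (0.026), Gad1 (0.026), Gad2 (0.17), Slc32a1 (0.022), Slc6a11 (0.014) and Abat (0.026). Scaled by library totals, it changed for Abat (-0.0019) in HP against LP, for Gabra2 (0.0024), Gabra4 (0.013), Gabrb1 (0.0022) and Slc12a5 (0.013) in HA against HP, and for Gabrb1 (0.0045), Gabrq (0.0097) and Slc6a11 (0.0062) in HA against LP. With the replicate block it changed for Gabrr1 (-0.014) in HA against HP. The 18 ratio differences moved by less than the spread between libraries under their alternatives, although 11 changed sign under at least 1 of them. The order of the 25 levels was the same for TMM-scaled counts per kilobase, which use the same gene lengths as FPKM and so do not test them. By median FPKM the order changed only in Gabra4 and Gabrg3. Counts of 4 to 18 per library limit Gabrr1 and Gabrr2, and 9 to 129 limit Gabrd.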

Other observations

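The GABA transporter genes Slc6a12 and Slc6a13, known from the meninges as well as other tissues, were chosen for naming after their values were seen. Slc6a13 had 3.96, 3.48 and 62.1 CPM in HA, 2.89, 3.06 and 10.1 CPM in HP and 2.24, 4.88 and 46.5 CPM in LP. Slc6a12 had 0.783, 0.909 and 20.5 CPM in HA, 0.835, 0.57 and 1.26 CPM in HP and 0.779, 0.805 and 20.9 CPM in LP. For both genes HA replicate 3 and LP replicate 3 stood above the other 7 libraries, and these were also the libraries with the largest sums of the 7 meningeal markers, 692 and 361 CPM. The part of meningeal RNA in these values was not tested.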
